A study of Mus musculus with 6 samples.

Results

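Ribosome-associated quality control clears the incomplete proteins that are left on 60S subunits after a stalled ribosome has been taken apart. NEMF binds the 60S subunit with its trapped peptidyl-tRNA and recruits Listerin, the E3 ubiquitin ligase encoded by Ltn1, which ubiquitinates the nascent chain with TCF25 as a further partner. ANKZF1 then cuts the tRNA from the chain, and the AAA ATPase p97, encoded by Vcp, pulls the chain out with its adaptors UFD1 and NPL4. NEMF also extends stalled chains with C-terminal alanine tails, and the ligases RCHY1 (Pirh2) and KLHDC10, a substrate receptor of a cullin ligase, recognise such tails as C-degrons without Listerin. Footprints on the 9 genes of this pathway, Ltn1, Nemf, Tcf25, Vcp, Ufd1, Nploc4, Ankzf1, Rchy1 and Klhdc10, are described here. They were taken by gene name from a table of 21652 genes, each name matched 1 row, and all 9 were among the 12782 genes with enough counts to be tested.

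Ribosome profiling counts the mRNA fragments that ribosomes shield from nuclease, so a gene's count depends on its mRNA level and on how densely that mRNA is occupied. The cells were MIN6, a mouse beta-cell tumour line that secretes insulin, and they expressed either the guide sgNT, taken as the non-targeting control, or the guide sgLTN1 against Ltn1, with 3 libraries each and no other treatment in the labels. Whether the sgLTN1 cells were a single clone or a mixed population, and whether the 3 libraries of a guide stem from separate cultures, is not stated in the labels. The p-values therefore reflect only the spread among these 6 libraries, which may be technical. RNA-seq was not analysed here, and neither the proteins nor ubiquitination were measured.

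Library totals lay between 4373467 and 11198735 counts. Of 11 beta-cell marker genes 9 were tested, while Slc2a2 and Ucn3 read below 1 CPM (counts scaled to a common library size) in the mean of either group. The summed level of the beta-cell markers was 94831 to 105274 CPM in sgNT and 93035 to 114560 CPM in sgLTN1. Markers of other islet cells summed to 585 to 616 CPM in sgNT and 582 to 661 CPM in sgLTN1, mostly Gcg (562 ± 14.5 and 566 ± 34.7 CPM; mean ± SD, n = 3). Within that sum, Sst was at 30.4 ± 1.42 and 43.3 ± 3.65 CPM (log2 fold change of sgLTN1 over sgNT 0.50, adjusted p = 0.062 in edgeR) and Ppy at 3.30 ± 1.07 and 6.09 ± 1.02 CPM (0.82, adjusted p = 0.176). Markers of exocrine and duct cells summed to at most 4.23 CPM in any library, and those of blood, vessel and stroma to 37.6 to 46.1 CPM in sgNT and 35.3 to 38.1 CPM in sgLTN1. No marker of these lists was at 0 in all libraries, and none passed the threshold between the groups. Coding lengths were not used here, so levels are compared between groups for a gene and not between genes.

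Ltn1 was the single gene of the 9 that was called as changed. A gene was called at a Benjamini-Hochberg adjusted p under 0.05 over all tested genes in the quasi-likelihood test of edgeR. Of all tested genes, 0.18% were called, 0.0939% as lower and 0.0861% as higher. The 8 partner genes held no call. At that share a set of 8 would seldom hold any, so this count does not show that they were unchanged. Their log2 fold changes (sgLTN1 over sgNT) lay between -0.57 and 0.16. Of these, 4 were above 0 and 4 below, where 47.3% and 52.7% of all tested genes lay. Their median was -0.01, beside -0.02 for all tested genes. Nemf (-0.57) and Ankzf1 (-0.29) lay farthest below 0, and their adjusted p-values were 0.310 and 0.275.

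**Figure D1:**
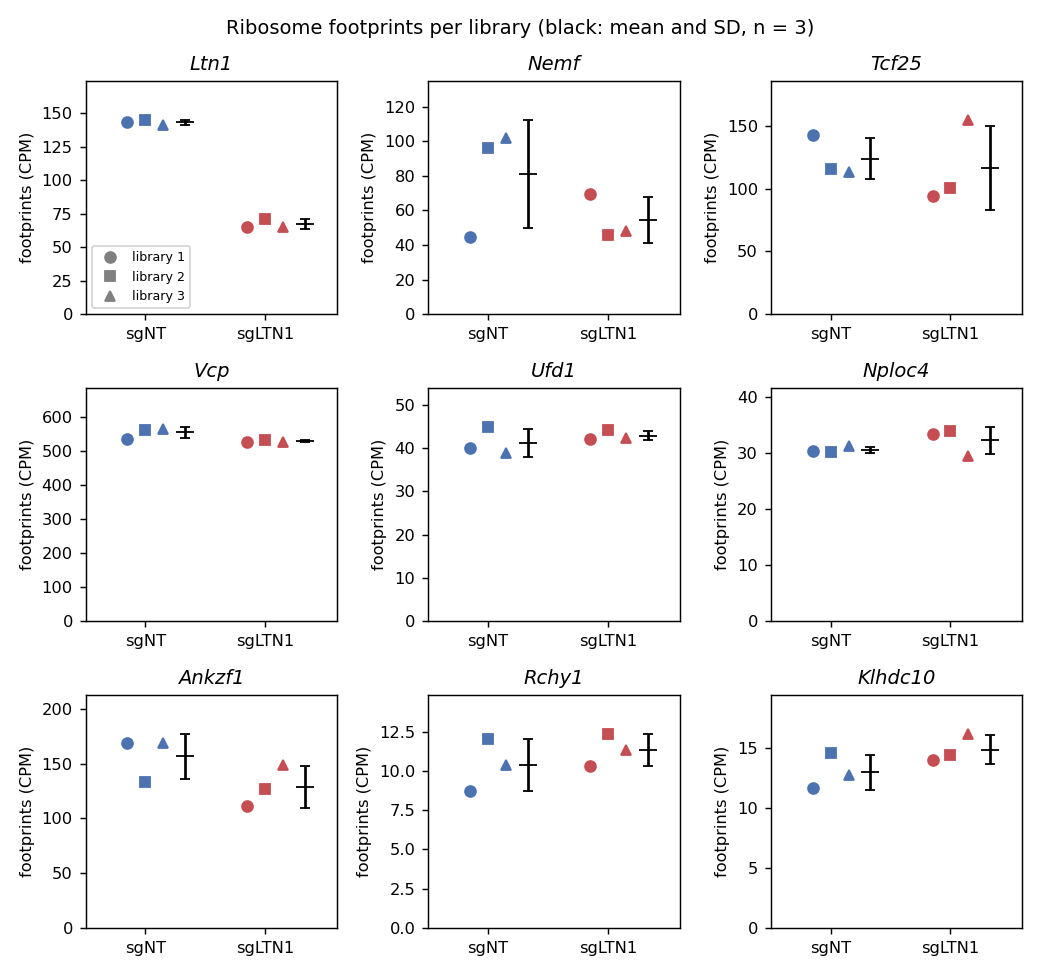
Footprints in CPM (vertical axis, from 0) on each of the 9 genes in the 3 sgNT libraries (blue) and the 3 sgLTN1 libraries (red), with the marker shape giving the library number and the black bar the mean and SD of the group. The groups are wide apart for Ltn1, while the libraries of a group spread widely for Nemf, Tcf25 and Ankzf1.

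Ltn1 (ENSMUSG00000052299.10) held 625, 1172 and 655 raw counts in sgNT libraries 1 to 3, and 723, 658 and 316 in sgLTN1 libraries 1 to 3. Scaled to library size, sgNT read 143, 145 and 141 CPM and sgLTN1 65.3, 71.4 and 64.9 CPM. Every sgLTN1 library therefore lay far below every sgNT library, and the libraries within a group were close to each other. The remaining level was 0.470 of the control, with a 95% interval of 0.423 to 0.522, so footprints on the targeted gene were reduced and not lost. In bulk libraries, fewer cells with footprints on a gene and fewer footprints in each cell cannot be told apart. The submitters' names for the deposited data call the sgLTN1 group LTN1KO, a knockout. A count per gene does not tell footprints on edited mRNA from those on intact mRNA. The remaining level is therefore no measure of how much intact Listerin was made. The coefficient of variation between libraries was 1.29% in sgNT and 5.46% in sgLTN1, beside 3.64% and 4.50% from counting alone. The log2 fold change was -1.09 (SE 0.07, adjusted p = 9.24e-05), and it stayed past the threshold without any single library, at -1.12 to -1.06.

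The genes on either side of Ltn1 were examined, a step added after the data had been seen, to ask whether the fall extended beyond it. Among the 5 protein-coding neighbours on each side in the RefSeq gene order (assembly GRCm38), 7 were tested. None passed the threshold, which 0.18% of all tested genes passed. At that share a set of 7 would seldom hold a call, so this count does not decide the question. The nearest neighbour on one side, N6amt1, a methyltransferase gene, was at 6.01 ± 0.794 CPM in the controls and at 5.70 ± 1.67 CPM in sgLTN1 (mean ± SD, n = 3), a log2 fold change of -0.17 (SE 0.23). The nearest on the other side, Rwdd2b, read 2.30 ± 0.851 and 2.06 ± 0.476 CPM. Both of these were sparsely covered, and their intervals are wide. Usp16, a deubiquitinase gene placed beyond Rwdd2b, was at 0.00 (SE 0.12), and Cct8, which encodes a chaperonin subunit, went from 211 ± 8.74 to 202 ± 3.81 CPM (-0.06, SE 0.06). App, the amyloid precursor gene and the most distant of the tested genes on its side, read 895 ± 72.4 and 1074 ± 112 CPM (0.26, SE 0.08, adjusted p = 0.182 in edgeR).

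**Figure D2:**
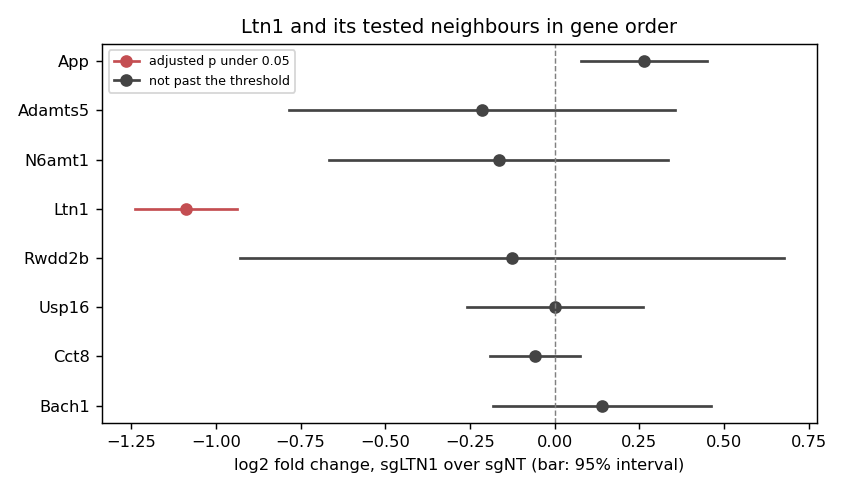
Log2 fold change of footprints, sgLTN1 over sgNT (horizontal axis), with its 95% interval, for Ltn1 and the tested genes among its 5 protein-coding neighbours on each side, listed in gene order and not to distance. Only Ltn1 passed the threshold (red), at -1.09, while the intervals of every tested neighbour except App include 0.

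Nemf (ENSMUSG00000020982.10) encodes the 60S-binding factor that recruits Listerin and adds the alanine tails. Its raw counts were 196, 777 and 472 in sgNT libraries 1 to 3 and 773, 424 and 233 in sgLTN1 libraries 1 to 3. These scale to 44.9, 96.1 and 102 CPM in sgNT and to 69.8, 46.0 and 47.9 CPM in sgLTN1. The groups overlapped, because sgNT library 1 was the lowest of all 6 while the other two sgNT libraries were the highest. The spread was 38.7% (coefficient of variation) in sgNT and 24.2% in sgLTN1, where counting alone gives 5.33% and 5.15%. Its biological coefficient of variation in edgeR, 21.9%, was at percentile 96.0 of the tested genes, whose median was 8.39%. The log2 fold change was -0.57 (SE 0.25), with a 95% interval of -1.12 to -0.01, an unadjusted p of 0.0451 and an adjusted p of 0.310 in edgeR. Without sgNT library 1 it was -0.82 (SE 0.16, adjusted p = 0.107 in edgeR), and leaving out the other libraries one at a time gave -0.80 to -0.39. With both sgNT library 1 and sgLTN1 library 3 left out it was -0.74 (SE 0.16, adjusted p = 0.0488 in edgeR). Those libraries were picked after their Nemf and Tcf25 values had been seen, so that value is a description and not a call.

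The ratio of Nemf to Ltn1 counts within a library needs no scaling between libraries. It was 0.314, 0.663 and 0.721 in sgNT libraries 1 to 3 and 1.07, 0.644 and 0.737 in sgLTN1 libraries 1 to 3. Although Ltn1 itself separated the groups, this ratio did not, since the sgLTN1 libraries 2 and 3 lay close to sgNT libraries 2 and 3. The mean was 0.566 ± 0.220 in sgNT and 0.817 ± 0.223 in sgLTN1 (mean ± SD, n = 3; two-sided exact permutation test, p = 0.4, and 0.8 adjusted over the 2 ratios tested). No p below 0.1 is possible in this test with 3 libraries against 3.

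Tcf25 (ENSMUSG00000001472.18) encodes the relative of yeast Rqc1 that works with Listerin. Its levels were 142, 115 and 113 CPM in sgNT libraries 1 to 3 and 94.3, 100 and 155 CPM in sgLTN1 libraries 1 to 3, from 525 to 1045 raw counts per library. In each group a single library stood above the others, sgNT library 1 and sgLTN1 library 3, and the latter was the highest of all. The coefficient of variation reached 28.5% in sgLTN1, with 3.35% from counting. The log2 fold change was -0.10 (SE 0.16, adjusted p = 0.828 in edgeR), with a 95% interval of -0.46 to 0.26. It turned to 0.029 without sgNT library 1, 0.036 without sgLTN1 library 1 and 0.01 without sgLTN1 library 2, and was -0.33 without sgLTN1 library 3. In sgNT library 1 a high Tcf25 went with a low Nemf, and in sgLTN1 library 3 Tcf25 was high while Nemf was close to that of sgLTN1 library 2.

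The genes of the p97 extraction complex were measured more evenly. Vcp (ENSMUSG00000028452.8), the ATPase, held 2330 to 5832 raw counts per library and gave 534, 562 and 565 CPM with sgNT and 526, 531 and 526 CPM with sgLTN1. The sgLTN1 libraries all lay below the sgNT libraries, by a small margin. Such separation of the groups was found for 20.2% of all tested genes, 10.1% lower and 10.1% higher in sgLTN1, and among the 9 genes for Vcp and Ltn1, both lower. The log2 fold change of Vcp was -0.07 (SE 0.05), and its 95% interval, -0.19 to 0.05, corresponds to a level between 0.878 and 1.03 of the control. The adjusted p was 0.590 in edgeR. With the abundance trend removed the log2 fold change was -0.18 (SE 0.05, adjusted p = 0.181 in edgeR). With scaling to total counts alone it was -0.14 (SE 0.06, adjusted p = 0.226 in edgeR). Each was at least 2 times the value above, and Vcp passed the threshold in neither setting.

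Ufd1 (ENSMUSG00000005262.14) and Nploc4 (ENSMUSG00000039703.17) encode the adaptor pair that brings ubiquitinated chains to p97. Levels of Ufd1 were 39.9, 44.9 and 38.8 CPM with sgNT and 42.1, 44.1 and 42.3 CPM with sgLTN1; the sgLTN1 libraries lay within the range of the controls. Its log2 fold change was 0.05 (SE 0.09, 95% interval -0.14 to 0.24, adjusted p = 0.845 in edgeR) and took the other sign, -0.029, with scaling to total counts alone. Nploc4 stood at 30.5, 30.2 and 31.3 CPM in the control libraries and 33.5, 34.0 and 29.6 CPM in the sgLTN1 libraries, with sgLTN1 library 3 the lowest of all 6. Its log2 fold change was 0.09 (SE 0.09, 95% interval -0.10 to 0.28, adjusted p = 0.684 in edgeR). The products of these genes act as a heterodimer, and the ratio of Nploc4 to Ufd1 counts was 0.764, 0.672 and 0.806 in sgNT libraries 1 to 3 and 0.796, 0.771 and 0.699 in sgLTN1 libraries 1 to 3. The means were 0.747 ± 0.0683 and 0.755 ± 0.0504 (mean ± SD, n = 3; two-sided exact permutation test, p = 0.9, and 0.9 adjusted over the 2 ratios). Ufd1 overlaps the replication gene Cdc45 in the annotation used for gene order, and without a stated strand setting their reads may be exchanged. Cdc45 did not pass the threshold either (35.6 ± 2.07 and 31.7 ± 6.26 CPM, log2 fold change -0.14, SE 0.13).

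Ankzf1 (ENSMUSG00000026199.19) encodes the hydrolase that frees the nascent chain from its tRNA. It held 736, 1077 and 783 raw counts in sgNT and 1231, 1164 and 726 in sgLTN1, which scale to 169, 133 and 169 CPM and to 111, 126 and 149 CPM. The lowest values were those of sgLTN1 libraries 1 and 2, but sgLTN1 library 3 lay above sgNT library 2, so the groups overlapped. The spread was 13.1% in sgNT and 14.9% in sgLTN1, beside 3.45% and 3.19% from counting. The log2 fold change was -0.29 (SE 0.12, 95% interval -0.55 to -0.03), with an unadjusted p of 0.0333 and an adjusted p of 0.275 in edgeR. It was -0.39 (SE 0.11, adjusted p = 0.0721 in edgeR) without sgLTN1 library 3 and -0.19 (SE 0.12, adjusted p = 0.622) without sgLTN1 library 1. Ankzf1 and Nemf made 2 of the 8 partner genes lower at an unadjusted p under 0.05 in edgeR, where 7.56% of all tested genes were. None of the 8 was higher, where 8% were. Ltn1, the target of the guide, was lower as well and is left out of this count. Glb1l, a galactosidase-like gene that overlaps Ankzf1 in the annotation, held 18 to 81 counts per library and had a log2 fold change of 0.20 (SE 0.23).

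The ligases that read alanine tails without Listerin were the most sparsely counted of the 9 genes. Rchy1 (ENSMUSG00000029397.16) held 38 to 114 raw counts per library and was at 8.71, 12.0 and 10.4 CPM in the controls and at 10.3, 12.4 and 11.3 CPM in sgLTN1, with the groups interleaved. Its log2 fold change was 0.10 (SE 0.15, adjusted p = 0.853 in edgeR). Klhdc10 (ENSMUSG00000029775.15) held 51 to 155 raw counts per library and gave 11.7, 14.6 and 12.7 CPM with sgNT and 14.0, 14.4 and 16.2 CPM with sgLTN1. All but sgNT library 2 of its control values lay below the sgLTN1 values, and the log2 fold change was 0.16 (SE 0.13, adjusted p = 0.653 in edgeR). The spread of both genes was near counting error in each group, 15.9% and 9.22% for Rchy1, where counting gives 13.8% and 10.9%, and 11.3% and 7.96% for Klhdc10, where counting gives 12.3% and 9.42%. The 95% intervals, -0.24 to 0.43 for Rchy1 and -0.12 to 0.44 for Klhdc10, correspond to levels of at most 1.35 times the control for either gene over all 6 libraries. Without sgNT library 2 the log2 fold changes were 0.25 (SE 0.17) for Rchy1 and 0.28 (SE 0.14) for Klhdc10, more than 1.5 times as large, and neither passed the threshold.

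**Figure D3:**
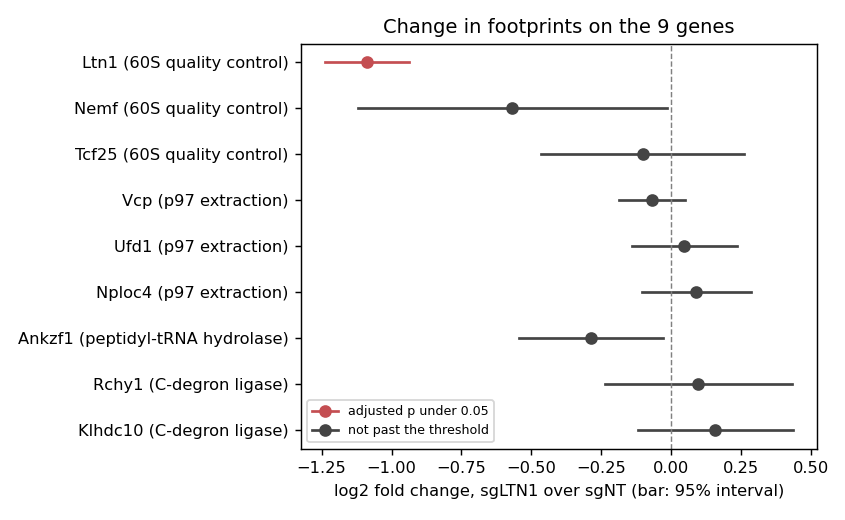
Log2 fold change of footprints, sgLTN1 over sgNT (horizontal axis), for the 9 genes with their roles, with bars for the 95% interval of edgeR's quasi-likelihood fit. Ltn1 at -1.09 is the single gene past the threshold (red), Nemf has the widest interval, -1.12 to -0.01, and Vcp has the narrowest, -0.19 to 0.05.

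The authors' deposited table of DESeq2 results ran in the same direction for each of the 9 genes. It is not a second measurement, since DESeq2 run here on the same counts called as many genes, 227. Its log2 fold changes were -1.07 (SE 0.10) for Ltn1, -0.55 (SE 0.40) for Nemf, -0.07 (SE 0.25) for Tcf25, -0.05 (SE 0.07) for Vcp and -0.27 (SE 0.12) for Ankzf1 in the authors' deposited table. The adjusted p-values there were 5.53e-23, 0.403, 0.891, 0.716 and 0.140 in the same order. For Ufd1 (0.07), Nploc4 (0.11), Rchy1 (0.13) and Klhdc10 (0.19) the authors' deposited table has no adjusted p, and it gives none for any gene with a mean normalized count under 309.

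Genes that act around these 9 were followed in 6 lists, and none of the 79 tested genes in them passed the threshold, which 0.18% of all tested genes passed. At that share a set of 79 would also mostly hold no call, so this count does not show that they were unchanged. Among p97 cofactors, 23 of 26 were tested, 8 above 0 and 15 below, with a median log2 fold change of -0.06. Of all tested genes, 47.3% lay above 0 and 52.7% below. Yod1, a p97-associated deubiquitinase, held 19 to 61 raw counts per library and stood at 8.25, 7.55 and 6.04 CPM in the control libraries and 4.15, 3.15 and 3.90 CPM in the sgLTN1 libraries. All its sgLTN1 values lay below its sgNT values, as was the case for 10.1% of all tested genes. The log2 fold change was -0.96 (SE 0.20, adjusted p = 0.0908 in edgeR). It passed the threshold with the filter on low counts removed (adjusted p = 0.0309) and without sgLTN1 library 3 (adjusted p = 0.0429). Zfand2b, which encodes a zinc finger protein that binds p97 and the proteasome, was at -0.53 (SE 0.21, adjusted p = 0.256 in edgeR), from 5.29 ± 0.837 to 3.56 ± 0.0616 CPM. In this list 2 of the 23 genes were higher and 3 lower at an unadjusted p under 0.05, where 8% and 7.56% of all tested genes were.

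Ligases and receptors of C-end degrons had a median of -0.02, with 5 above 0 and 7 below among the 12 tested of 13. Fem1c, a substrate receptor for C-terminal arginine degrons, was at 16.7, 14.8 and 16.4 CPM in the controls and at 11.7, 14.0 and 11.9 CPM in sgLTN1 (log2 fold change -0.33, SE 0.12, adjusted p = 0.226 in edgeR). Its groups did not overlap, and 10.1% of all tested genes were likewise lower without overlap. Klhdc2, a receptor for C-terminal glycine degrons, was at 0.22 (SE 0.11, adjusted p = 0.387), and its groups overlapped. Fem1c was the single gene of these 12 with an unadjusted p under 0.05 in edgeR, which 15.6% of all tested genes had.

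Genes of stall sensing and ribosome splitting, which act before the 60S steps, were all tested. Of these, 12 of 16 lay below 0, where 52.7% of all tested genes lay, with a median of -0.10. Ascc2, a subunit of the complex that takes apart collided ribosomes, went from 22.6 ± 0.808 to 19.8 ± 1.40 CPM (-0.19, SE 0.10, adjusted p = 0.373 in edgeR), and Abce1, the splitting ATPase, from 72.7 ± 2.43 to 65.9 ± 3.81 CPM (-0.14, SE 0.07, adjusted p = 0.392). No gene of this list had an unadjusted p under 0.05 in edgeR, where 15.6% of all tested genes did. Of the 6 peptidyl-tRNA hydrolases and tRNA end repair genes, 4 lay above 0, with a median of 0.07. Angel2, which encodes a phosphatase that removes cyclic phosphates from RNA ends, gave 6.42, 5.57 and 5.82 CPM with sgNT and 8.03, 6.73 and 7.81 CPM with sgLTN1. The sgLTN1 values all lay above the sgNT values, as for 10.1% of all tested genes, without passing the test (0.35, SE 0.17, adjusted p = 0.342 in edgeR). Trnt1, the CCA-adding enzyme, was at -0.19 (SE 0.13).

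The UFMylation genes, whose products modify 60S subunits at the endoplasmic reticulum, had 5 of 9 members above 0 and a median of 0.04. Ufl1, the ligase of the pathway, read 113 ± 7.32 and 125 ± 12.7 CPM (0.15, SE 0.09, adjusted p = 0.430 in edgeR), and Ddrgk1, its membrane partner, 102 ± 4.33 and 111 ± 7.02 CPM (0.13, SE 0.07, adjusted p = 0.435). Of 13 cytosolic quality-control ligases and carriers, 7 lay above 0, with a median of 0.00. Huwe1, a large ubiquitin ligase gene, was at -0.08 (SE 0.06, adjusted p = 0.548 in edgeR), and all its sgLTN1 values lay below the sgNT values, as was the case for 10.1% of tested genes.

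**Figure D4:**
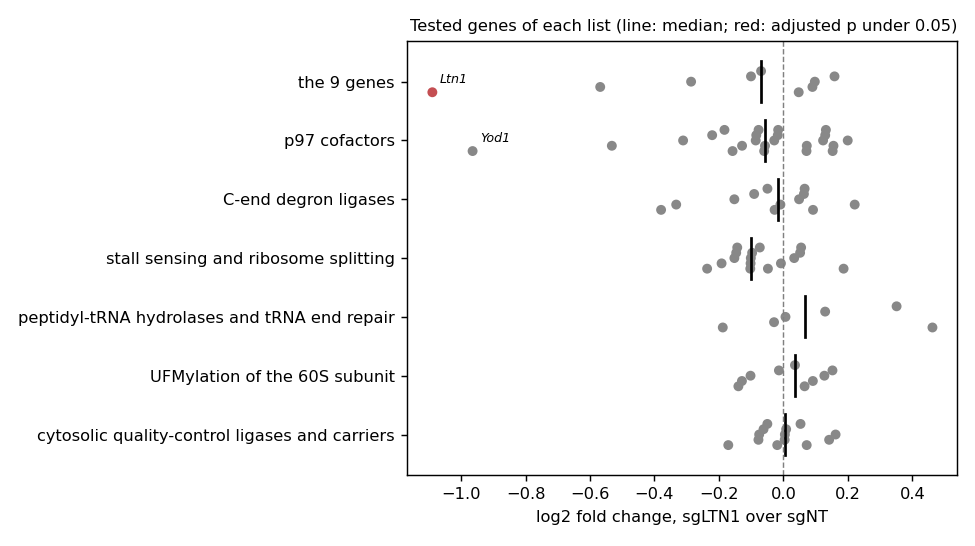
Log2 fold change of footprints, sgLTN1 over sgNT (horizontal axis), of each tested gene (points; vertical scatter within a row has no meaning) in the 9 genes and in the 6 pathway lists, with the median of each as a black line. Ltn1 at -1.09 is the single gene past the threshold (red); Yod1 at -0.96 lies apart from the other p97 cofactors without passing it.

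The genes whose pattern over the 6 libraries was most like that of Ltn1 were Gpnmb, Ass1, Penk, Ntn1 and Itgb3bp. Likeness was the mean absolute difference between log2 CPM values, each gene centred on its own mean, over 7513 genes with at least 10 CPM. The difference from Ltn1 was 0.09 for Gpnmb, a transmembrane glycoprotein gene, 0.09 for Ass1, the argininosuccinate synthase gene, and 0.18 for the other 3 genes. For the 8 partner genes it was 0.35 (Nemf), 0.40 (Ankzf1) and 0.49 to 0.64 (the remaining 6). Gpnmb stood at 17.9, 17.9 and 17.7 CPM in the control libraries and 7.67, 9.77 and 9.25 CPM in the sgLTN1 libraries, and Ass1 was at 63.5, 61.9 and 60.2 CPM in the controls and at 30.0, 32.0 and 35.3 CPM in sgLTN1. Since Ltn1 separates the groups, this measure finds genes that are low in sgLTN1, and its values are a description.

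**Figure D5:**
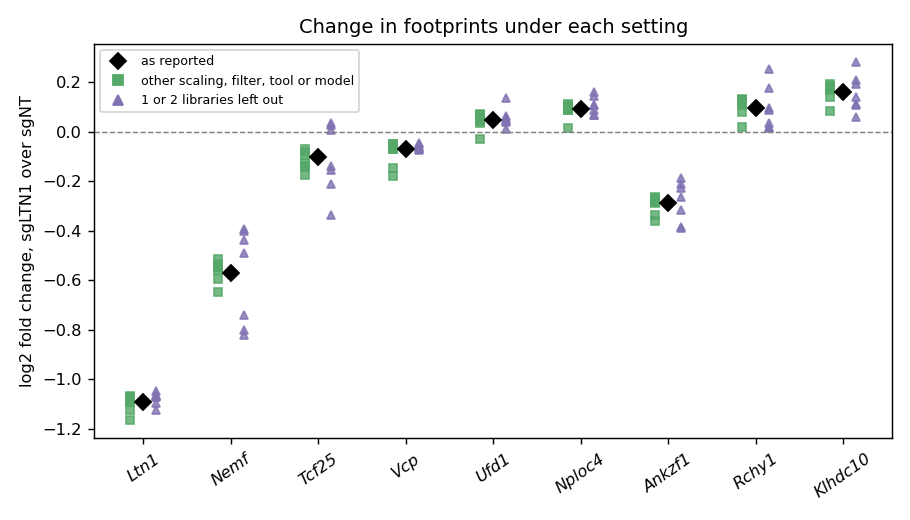
Log2 fold change of footprints, sgLTN1 over sgNT (vertical axis), for each of the 9 genes as reported (black diamonds), with another scaling, filter, tool or model (green squares), and with 1 or 2 libraries left out (purple triangles). Ltn1 stays between -1.17 and -1.05, Nemf ranges from -0.82 to -0.39, and Tcf25 lies on either side of 0.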

How the data were processed

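Whole-number read counts per gene for 6 ribosome profiling libraries form the main table that the authors deposited. The submitters' processing notes name GRCm39 as the build and list these tools: STAR 2.7.11a, featureCounts 2.12.3, Bowtie2 2.5.4, fastp 0.23.4, SAMtools 1.9 and UMI-tools 1.1.2. How each was set, whether strand was used and how reads with several alignments were counted is not given in the sources used here. The other deposited table holds the authors' DESeq2 results, per the file headers: a log2 fold change with its error, a p-value raw and adjusted, a mean normalized count (a signal level) and the Wald statistic (a score).

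edgeR 4.0.16 and limma 3.58.1 under R 4.3.3 were run on the deposited counts. filterByExpr chose the genes to test, and TMM scaled the libraries. edgeR's quasi-likelihood test compared the groups over the 6 libraries with no other term, and p-values were adjusted by Benjamini-Hochberg over 12782 tested genes, and 0.05 was the threshold. Errors of fold changes come from the test statistic, and intervals are 95%. For Rchy1 and Klhdc10 the p-values of edgeR were larger than these errors imply. The test was checked on simulated counts. That check covered the recovery of set fold changes, and no rate of false calls is drawn from it. Log2 CPM values used a prior count of 2. The genotype label gave the groups and the titles gave the library numbers. A single batch label covers all libraries. Replicate libraries differed by more than sampling noise (chi-square per degree of freedom at least 2.40). This value was highest for the pairs that hold sgLTN1 library 3, at 6.49 with sgLTN1 library 1 and 4.85 with sgLTN1 library 2. The ratios of genes were planned per coding length. No lengths were used, which leaves comparisons between groups unaltered. Reads may not be independent molecules.

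The 9 genes and the lists were chosen with earlier results of these data known. The text names all 9 genes, of each list the 4 genes with the smallest p where it holds a call and otherwise 2, and the 5 genes most like Ltn1. A gene that this rule names in the list of quality-control ligases is not reported here. Alternatives were another scaling, no filter on low counts, DESeq2 1.42.0, limma's voom, the replicate number as a block, an abundance trend removed by loess, and libraries left out.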

Additional observations from a re-analysis of the deposited data

How the results depend on the processing

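For the 9 genes, 126 values were recomputed over 14 alternatives, and 121 kept their direction and their side of the threshold. Ufd1, Nploc4, Rchy1 and Klhdc10 had no adjusted p with DESeq2 and were counted as not called there. Ltn1 stayed past the threshold in all 14, between -1.17 and -1.05. Leaving out single libraries moved Tcf25 from -0.33 to 0.036, and Ufd1 was -0.029 with total counts alone. With the 2 libraries left out that were chosen after the data were seen, Nemf was past the threshold at -0.74, so 2 of the 9 genes passed it, and 250 genes overall. The ratio of Nemf to Ltn1 in sgLTN1, as a multiple of that in sgNT, was 1.44, and 1.18 to 1.67 with single libraries left out; that of Nploc4 to Ufd1 was 1.01, and 0.962 to 1.05. The count of genes past the threshold over the whole table, 23 (11 higher, 12 lower), was 42 with total counts alone (8 higher, 34 lower), 222 with no filter on low counts, 227 with DESeq2 (183 higher, 44 lower), 40 with voom and 4 to 333 with single libraries left out; 4 came without sgLTN1 library 2 and 333 without sgLTN1 library 3. The count of list genes past it was 0, and 1 (Yod1) with no filter on low counts and with the replicate block, and 0 to 1 with single libraries left out. With the replicate number as a block (replicate block), 609 genes passed (406 higher, 203 lower) and Ltn1 remained at -1.09. The same-numbered libraries 1 to 3 had deviations correlated at -0.05, 0.07 and 0.09. Libraries 2 and 3 of sgLTN1 correlated best with the sgNT library of the same number, while sgLTN1 library 1 correlated best with sgNT library 2 (0.10). These values do not settle whether the numbers pair the samples, and the reported test used no pairing. The cause of these shifts was not tested. Depth limits Rchy1, Klhdc10 and Yod1, with as few as 38, 51 and 19 counts in a library.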
